A study of Homo sapiens with 8 samples.

Results

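The genes described are 10 parts and targets of the Wnt pathway: APC, AXIN1, AXIN2, CTNNB1, TCF7L2, LEF1, RNF43, LGR5, ASCL2 and MYC. They were chosen by name, and every probe set annotated to a single one of them, by its current or an older symbol, was taken. This gave 29 of the 41091 probe sets that carry a single gene symbol, for 10 of 19752 genes. The groups were 4 cultures of DLD-1 cells transfected with 50 nM miR-143 duplex and 4 mock transfected cultures of the same line, with RNA taken after 24 h and put on Affymetrix HG-U133 Plus 2.0 arrays, which measure messenger RNA. DLD-1 is an established line from a human colorectal adenocarcinoma in which APC is mutant, and all 8 cultures share that mutation. Arrays of a scrambled duplex were not used here, so an effect of any duplex and an effect of the miR-143 sequence cannot be told apart. The arrays do not measure mature miR-143 itself.

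In a cell without a Wnt signal, a destruction complex built on APC and the axins holds β-catenin, the product of CTNNB1, so that it is phosphorylated and degraded. A Wnt ligand at its receptors stops the complex, and β-catenin then enters the nucleus, binds the TCF and LEF factors and turns on target genes. The intestinal crypt depends on this pathway for its stem cells, and most colorectal tumours carry a lesion of APC or β-catenin that keeps it on. Several of its targets feed back on it, among them AXIN2 in the complex and RNF43 at the receptor.

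Mature miR-143 is shown because the transfected duplex was made to mimic it. The exact strands of that duplex are not given in the sources used here. The RefSeq position of miR-143 in GRCh38.p14 is the forward strand of chromosome 5, chr5:149428978-149428998 for the 3p arm and chr5:149428944-149428965 for the 5p arm. Both are written 5′ to 3′ with the seed, bases 2 to 8, in capitals.
hsa-miR-143-3p: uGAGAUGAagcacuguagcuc
hsa-miR-143-5p: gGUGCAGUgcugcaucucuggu
The 3p seed pairs with the word TCATCTC in a messenger RNA. Transcript sequences of the members were not searched here for that word.

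Promoters were searched because the TCF and LEF factors act there, and because MYC protein binds an E-box. The RefSeq promoters in GRCh38.p14 run from 250 bases before to 50 after each listed start of a gene. Those searched were 10 promoters of 6 members: 3 of TCF7L2, 2 of APC, 2 of RNF43 and 1 each of CTNNB1, LEF1 and AXIN1. Promoters of AXIN2, LGR5, ASCL2 and MYC were not searched. The chromosome that carries MYC was left out for the members, but not for the share over all promoters. The TCF words CTTTGAT and CTTTGAA were in 0 of the 10 on either strand, against 2.62% and 4.43% of all 35116 promoters. The TCF word CTTTGTT was in 1, a TCF7L2 promoter, against 5.2% of all, and the E-box CACGTG was in 1, an APC promoter, against 7.26% of all. Both windows below lie on the forward strand, at chr10:113126480-113126526 for TCF7L2 and chr5:112737819-112737864 for APC, with the matched word in capitals.
TCF7L2: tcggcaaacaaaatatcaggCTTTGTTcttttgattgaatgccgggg
APC: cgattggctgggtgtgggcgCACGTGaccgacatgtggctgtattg
Counted from the start used for that promoter, which is 1 of 3 listed for TCF7L2 and 1 of 2 for APC, the words begin at −133 and −46. A match in these letters is not a measured binding site.

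Values are log2 RMA values, so a difference of 1 stands for a doubling, and all differences below are miR-143 minus mock. Such values do not compare levels between genes. A gene is given by its brightest probe set unless another is named, and a probe set is called dim where its mean over the 8 arrays was under 7.305, the median of all single-symbol probe sets. The arrays of replicate 4 stood apart in both groups: the SD over probe sets was 1.53 in the miR-143 and 1.56 in the mock array of that number, against 1.37 to 1.45 in the other 6, and the first principal component, with 66.9% of the variance, separated these 2 arrays. The replicate numbers could not be shown to pair the cultures, so limma was fitted without and with pairs. Without pairs limma called 0 of 19752 genes at an adjusted p of 0.05 (477, or 2.41%, at an unadjusted p under 0.05), and with pairs it called 123 lower (0.623%) and 33 higher (0.167%).

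No member passed the test. At an adjusted p of 0.05 limma called 0 of 10 members without pairs, beside 0% of all genes, and 0 of 10 with pairs, beside 0.79% of all genes. At an unadjusted p under 0.05 it gave 0 members without pairs, beside 2.41% of genes, and 2 with pairs (MYC and ASCL2), beside 9.55%. The difference was negative for 8 members and positive for 2, with a median of −0.03, against −0.01 over all genes, 55.6% of which were negative. For 8 members it lay within 0.1 of 0, and only MYC and ASCL2 lay farther out. The groups overlapped in all 10, and did not overlap in 1.95% of all genes. The RNA came from whole cultures, so fewer cells that express a gene and less RNA per cell cannot be told apart. Over the 29 probe sets limma called 0 without pairs, beside 0.00243% of all probe sets, and 0 with pairs, beside 0.526%, and at an unadjusted p under 0.05 it gave 1 without pairs (ASCL2 229215_at), beside 2.57%, and 2 with pairs, beside 8.83%.

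**Figure D1:**
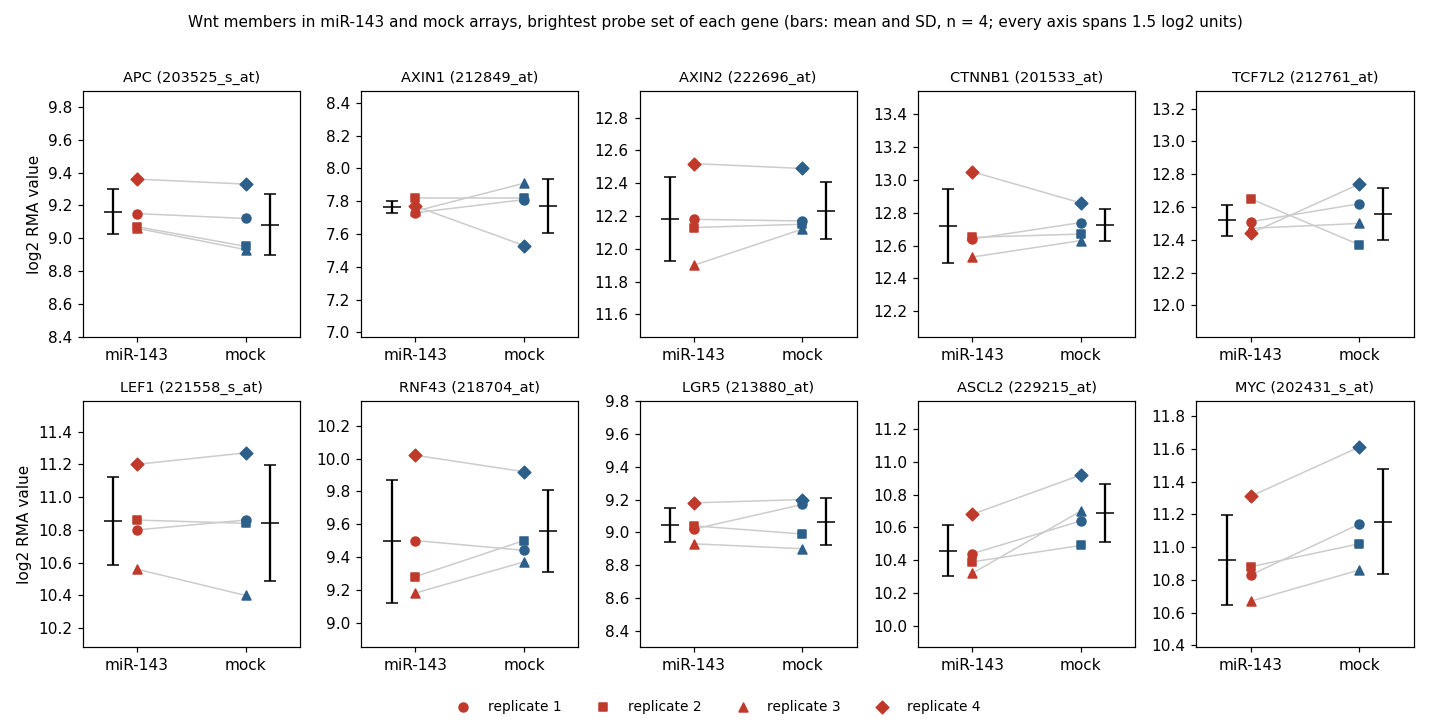
Log2 RMA value of each member in the 4 miR-143 arrays (red) and the 4 mock arrays (blue), with symbols for replicate numbers, grey lines joining arrays of the same number, and bars for mean and SD; every vertical axis spans 1.5 log2 units. The groups overlap in every panel, MYC and ASCL2 have a lower miR-143 value at each of the 4 numbers, and replicate 4 is the highest array of both groups in 8 of the 10 panels.

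APC (203525_s_at), the tumour suppressor that scaffolds it, had 9.15, 9.07, 9.06 and 9.36 in miR-143 cells, against 9.12, 8.95, 8.93 and 9.33 in mock cells. Its mean was 9.16 ± 0.14 in miR-143 cells and 9.08 ± 0.18 in mock cells (SD, n = 4 each), a difference of 0.08 with a 95% interval of −0.15 to 0.31 (limma adjusted p = 1 without pairs and 0.668 with pairs). The miR-143 value was the higher at all 4 numbers, which held for 6.54% of all genes. The APC probe sets did not run one way.

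A further APC probe set, 203527_s_at, was the only member probe set of 29 whose groups did not overlap, beside 2.03% of all probe sets (1.25% with miR-143 below). It had 7.71, 7.70, 7.67 and 7.69 in miR-143 cells, against 7.82, 7.78, 7.73 and 7.84 in mock cells. The means were 7.69 ± 0.02 in miR-143 cells and 7.79 ± 0.05 in mock cells, a difference of −0.10 with an SE of 0.05 (limma adjusted p = 1 without pairs and 0.582 with pairs). Its exact permutation p was 0.0286 (two-sided), the smallest that 4 against 4 allows. Any groups that do not overlap give this permutation p, so it adds nothing to that observation. Of the other APC probe sets, 215310_at differed by 0.09, and 203526_s_at and 216933_x_at were dim, at 0.01 and −0.004. The values do not tell mutant from normal APC transcript.

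AXIN1 (212849_at), the axin that is present in most cells, had 7.73, 7.82, 7.74 and 7.77 in miR-143 cells, against 7.81, 7.82, 7.91 and 7.53 in mock cells. The means were 7.77 ± 0.04 in miR-143 cells and 7.77 ± 0.16 in mock cells, and the difference of −0.004 had an interval of −0.19 to 0.18. Its mock arrays spanned both the highest and the lowest of the 8 values, so the miR-143 range lay inside the mock range.

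AXIN2 (222696_at), the axin that the pathway itself induces, had 12.18, 12.13, 11.90 and 12.52 in miR-143 cells, against 12.17, 12.15, 12.12 and 12.49 in mock cells. The difference was −0.05 with an interval of −0.34 to 0.24 (limma adjusted p = 1 without pairs and 0.852 with pairs). Replicates 1, 2 and 4 differed little between the groups, and the lowest of the 8 values was miR-143 replicate 3. Its other 3 probe sets differed by −0.06, −0.05 and 0.02.

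CTNNB1 (201533_at), the gene of β-catenin, had 12.64, 12.65, 12.53 and 13.05 in miR-143 cells, against 12.74, 12.67, 12.63 and 12.86 in mock cells. The means were 12.72 ± 0.23 in miR-143 cells and 12.73 ± 0.10 in mock cells, and the difference of −0.007 had an interval of −0.25 to 0.23. Only at replicate 4 was the miR-143 value the higher. Its other 2 probe sets differed by −0.01 and 0.05. The arrays measure its messenger RNA and not the protein that the complex degrades.

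TCF7L2 (212761_at), the TCF factor known best in the intestinal epithelium, had 12.51, 12.65, 12.47 and 12.44 in miR-143 cells, against 12.62, 12.37, 12.50 and 12.74 in mock cells. The difference was −0.04 with an interval of −0.23 to 0.16 (limma adjusted p = 1 without pairs and 0.932 with pairs). Its 7 probe sets ranged from −0.13 to 0.08, 4 negative and 3 positive. The most negative, 212759_s_at, had 8.74, 8.21, 8.39 and 8.92 in miR-143 cells, against 8.58, 8.61, 8.56 and 9.04 in mock cells, so that those groups overlapped widely.

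LEF1 (221558_s_at), a related factor that is itself a target in colorectal tumours, had 10.80, 10.86, 10.56 and 11.20 in miR-143 cells, against 10.86, 10.84, 10.40 and 11.27 in mock cells. The difference was 0.01, and its interval of −0.39 to 0.42 was among the widest of the members. In both groups replicate 3 was the lowest array and replicate 4 the highest. Its other 2 probe sets differed by −0.04 and 0.004, the second of them dim.

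RNF43 (218704_at), a ubiquitin ligase that removes Frizzled receptors from the cell surface, had 9.5, 9.28, 9.18 and 10.02 in miR-143 cells, against 9.44, 9.5, 9.37 and 9.92 in mock cells. The difference was −0.06 with an interval of −0.48 to 0.35. It was lower in miR-143 cells at replicates 2 and 3 and higher at 1 and 4. LGR5 (213880_at), the R-spondin receptor that marks crypt stem cells, had 9.02, 9.04, 8.93 and 9.18 in miR-143 cells, against 9.17, 8.99, 8.90 and 9.20 in mock cells. Its difference was −0.02 with an interval of −0.21 to 0.17, and its other probe set differed by 0.03.

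**Figure D2:**
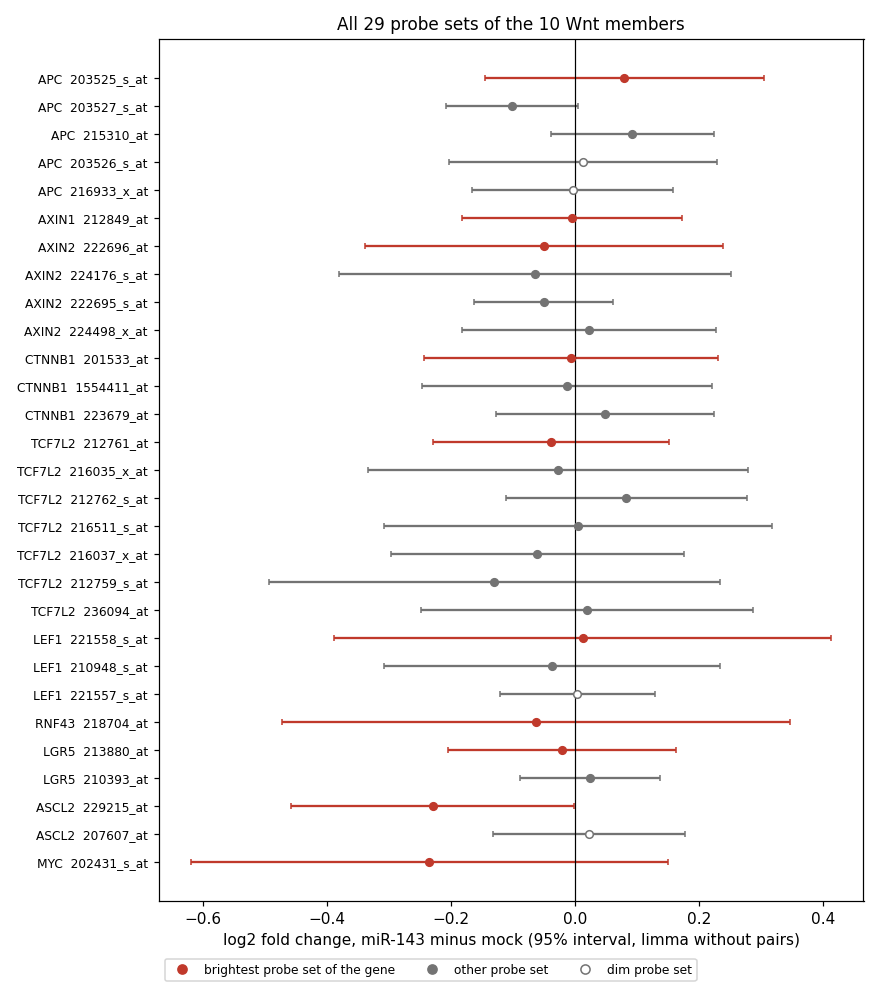
Difference in log2 RMA value, miR-143 minus mock, for all 29 probe sets of the 10 members, with the 95% interval of limma without pairs; red marks the brightest probe set of each gene and open circles mark the 4 dim ones. Of the 29 points 27 lie within 0.15 of 0, and the brightest ASCL2 probe set and the MYC probe set lie farther to the left.

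MYC and ASCL2 had the largest differences of the 10. ASCL2 (229215_at), a transcription factor of the crypt stem cell, had 10.44, 10.39, 10.32 and 10.68 in miR-143 cells, against 10.64, 10.49, 10.70 and 10.92 in mock cells. Of the miR-143 arrays only replicate 4 lay inside the mock range. The mean was 10.46 ± 0.16 in miR-143 cells and 10.69 ± 0.18 in mock cells (SD, n = 4 each). The difference of −0.23 with an SE of 0.10 is 0.853-fold on the linear scale, and its interval ran from −0.46 to 0.003. The exact permutation test gave p = 0.0857 (two-sided), and limma gave an adjusted p of 1 without pairs and 0.114 with pairs. A difference at least as negative was found for 1.3% of all genes.

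Its second probe set, 207607_at, was dim and differed by 0.02, so the ASCL2 difference rests on a single probe set, and the mean of both differed by −0.10. Leaving out mock replicate 4 moved the value of the first to −0.15. After cyclic loess normalization, which removes differences between arrays that depend on intensity, that probe set had 10.47, 10.44, 10.51 and 10.5 in miR-143 cells, against 10.61, 10.57, 10.79 and 10.67 in mock cells. ASCL2 was then the only member whose groups did not overlap, as 1.92% of all genes did with miR-143 below, and the difference was −0.18 (limma adjusted p = 0.557).

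MYC (202431_s_at), the growth regulator that Wnt signalling turns on, had 10.83, 10.88, 10.67 and 11.31 in miR-143 cells, against 11.14, 11.02, 10.86 and 11.61 in mock cells. It was lower at each of the 4 replicate numbers, by 0.14 to 0.31, but the arrays of each group lay farther apart than that. The mean was 10.92 ± 0.27 in miR-143 cells and 11.16 ± 0.32 in mock cells (SD, n = 4 each). The difference of −0.24 with an SE of 0.17 is 0.850-fold on the linear scale, with an interval of −0.62 to 0.15. The exact permutation test gave p = 0.314 (two-sided), and limma gave an adjusted p of 1 without pairs.

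With pairs the SE of the MYC difference was 0.05 and the limma adjusted p was 0.0719, the lowest of any member in any setting run. MYC and ASCL2 were the 2 members lower in miR-143 cells at all 4 numbers, as 10.9% of all genes were. By probe set 3 of 29 were, the brightest ASCL2 one, the MYC one and APC 203527_s_at, beside 10.2% of all probe sets. The MYC value moved with single arrays. It was −0.36 without miR-143 replicate 4, −0.15 without miR-143 replicate 3 and −0.08 without mock replicate 4. Without replicate 4 of both groups it was −0.21, close to the value over all 8 arrays.

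**Figure D3:**
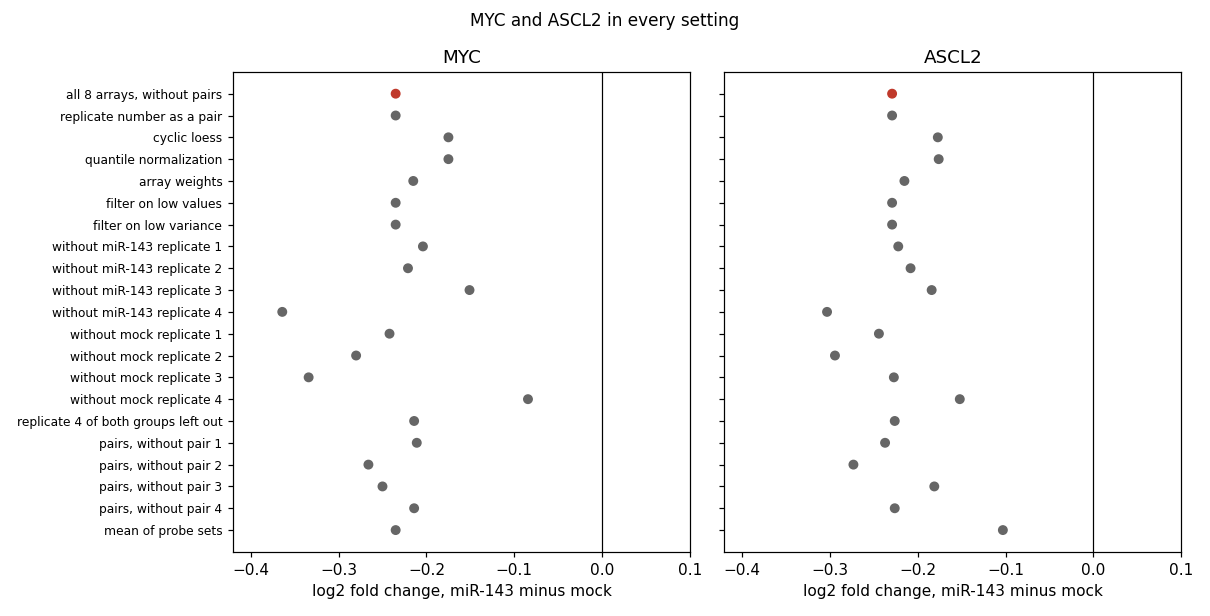
Difference in log2 RMA value, miR-143 minus mock, for MYC (left) and ASCL2 (right) with all 8 arrays without pairs (red) and in each other setting (grey). The pairs and both filters cannot move the difference, nor can the mean of probe sets for MYC, which has 1. All points lie below 0, from −0.36 to −0.08 for MYC and from −0.30 to −0.10 for ASCL2, and none passed an adjusted p of 0.05.

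In every member but ASCL2 the SD within each group was larger than the difference between miR-143 and mock cells. In 8 of the 10, all but AXIN1 and TCF7L2, replicate 4 was the highest array of both groups. This held for 36.1% of all genes and for 63% of the genes at or above the median level. The lowest miR-143 value was in replicate 3 for the same 8, as for 40.5% of all genes and 67.6% of those at or above the median level. Replicate 4 exceeded the mean of replicates 1 to 3 by 0.70 in miR-143 cells and 0.49 in mock cells for RNF43, and by 0.52 in miR-143 cells and 0.60 in mock cells for MYC. After cyclic loess these gaps were 0.45 in miR-143 and 0.23 in mock cells for RNF43, and 0.24 in miR-143 and 0.28 in mock cells for MYC.

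Over the 8 arrays the genes whose values ran most like those of AXIN2 were TWNK, the mitochondrial DNA helicase, with a Pearson r of 0.997, DNAJC14 with 0.996 and NDUFA10, a subunit of respiratory complex I, with 0.993. Without the arrays of replicate 4 these were 0.984, 0.980 and 0.972 over 6 arrays. Among the members r with AXIN2 was highest for RNF43 at 0.972 and lowest for AXIN1 at −0.50. The 8 arrays share the spread of replicate 4, so these values are a description.

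The rest of the pathway was read from 7 lists with 144 genes besides the members, of which 135 had a single-symbol probe set. Limma called 0 of the 135 without or with pairs, beside 0% and 0.79% of all genes. Of these genes 67 were negative and 68 positive, with a median near 0, and at an unadjusted p under 0.05 without pairs 3 were lower (FGF18, CEMIP and MXD1) and 2 higher (KREMEN1 and EP300). These 5 are 3.7% of the 135, near the 2.41% of all genes at that threshold. The groups did not overlap in 4 of the 135, 1 with miR-143 below (FGF18), beside 1.24% of all genes, and 3 above (KREMEN1, EP300 and BCL9), beside 0.719%. The genes named from each list are up to 3 of lowest p without pairs, and those with an unadjusted p under 0.05 with pairs. None of them passed the test.

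In the list of other Wnt target genes 17 of 30 were negative and 13 positive, with a median of −0.04. With pairs, limma gave an unadjusted p under 0.05 for FGF18, CEMIP, VEGFA, ID2, TNFRSF19, CCND1 and SOX9, all lower in miR-143 cells. Over all genes 9.55% had such a p, in either direction. The other pathway lists held such a p in both directions. It was found for KREMEN1, TNKS2, TLE4 and EP300, higher in miR-143 cells. It was also found for FZD2, RNF146, TNKS, CTBP1, MXD1 and MLX, lower in miR-143 cells. None of these genes passed an adjusted p of 0.05 with pairs. FGF18, a secreted growth factor, had 8.52, 8.61, 8.58 and 8.66 in miR-143 cells, against 8.93, 8.79, 8.67 and 8.95 in mock cells. Its groups did not overlap, as for 1.24% of all genes with miR-143 below, and the difference was −0.24 with an SE of 0.07 (limma adjusted p = 1 without pairs and 0.116 with pairs). CEMIP, which takes part in hyaluronan breakdown, had 9.19, 9.30, 9.09 and 9.38 in miR-143 cells, against 9.44, 9.42, 9.33 and 9.67 in mock cells, a difference of −0.23 (limma adjusted p = 1 without pairs and 0.0809 with pairs). On the mean of the probe sets of each gene the limma adjusted p with pairs was 0.366 for FGF18 and 0.238 for CEMIP. VEGFA, the vascular growth factor, differed by −0.13.

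Among 14 genes of secreted inhibitors and the Kremen receptors 7 were negative and 7 positive, and 11 of the 14 were dim. KREMEN1, a membrane receptor through which the DKK inhibitors act, had the largest difference of the list, with 7.99, 7.89, 7.94 and 8.21 in miR-143 cells, against 7.81, 7.69, 7.79 and 7.88 in mock cells. The groups did not overlap, as for 0.719% of all genes with miR-143 above, and the difference was 0.22 with an SE of 0.08 (limma adjusted p = 1 without pairs and 0.1 with pairs). On the mean of its probe sets the limma adjusted p with pairs was 0.757. WIF1 and DKK3, both secreted antagonists and both dim, differed by 0.08 and −0.07.

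Among 20 nuclear partners of TCF and β-catenin 10 were negative and 10 positive, and the groups did not overlap for the coactivators EP300 and BCL9, with differences of 0.15 and 0.11, beside 0.719% of all genes with miR-143 above. Limma with pairs gave an adjusted p of 0.389 for EP300 and 0.597 for BCL9. On the mean of the probe sets of each gene these were 0.993 and 0.555. In the 22 measured genes of the cytoplasmic chain 12 were negative and 10 positive. The tankyrases, which mark axin for degradation, differed in opposite directions, with 0.19 for TNKS2 and −0.13 for TNKS, while RNF146, the ligase that follows them, differed by −0.15. None of these passed limma without or with pairs.

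Of 18 ligand genes, 11 of them dim, 6 were negative and 12 positive, and of 21 R-spondins and receptors 8 were negative and 13 positive, with medians of 0.03 and 0.01. Among the ligands WNT7A, which was dim, differed by 0.09 and WNT5B by −0.12. Among the receptors LGR6 differed by −0.10 and FZD2, a Frizzled receptor, by −0.18. Of 10 partners and antagonists of MYC 7 were negative and 3 positive, with a median of −0.07. MXD1, which competes with MYC for MAX, differed by −0.19 and MLX by −0.18 (limma adjusted p = 1 for both without pairs, 0.158 for MXD1 and 0.337 for MLX with pairs). With the probe sets of each gene averaged, the limma adjusted p with pairs was 0.484 for MXD1 and 0.344 for MLX.

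**Figure D4:**
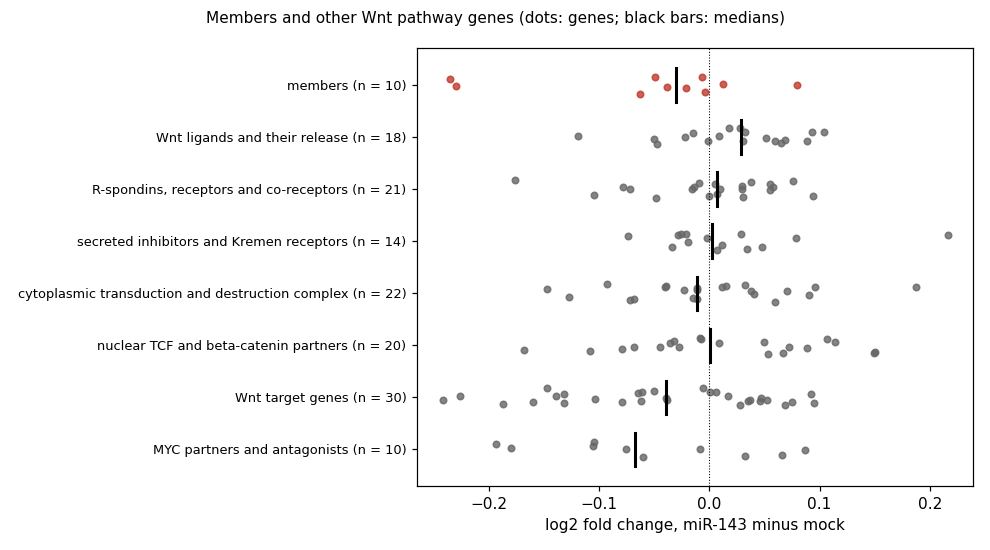
Difference in log2 RMA value, miR-143 minus mock, of the 10 members (red) and of the genes in 7 other pathway lists (grey), each dot a gene at its brightest probe set and each black bar a median. The list medians lie between −0.07 and 0.03, and no dot passed the test.

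The labelled cell type was checked with marker genes. All 12 epithelial markers were measured and 11 were not dim, with EPCAM at 13.58 ± 0.12 in miR-143 cells and 13.61 ± 0.26 in mock cells. All 12 differed negatively, with a median of −0.03 and 0 called without or with pairs. Among them were differences of the size found for MYC and ASCL2: KRT8 differed by −0.32, CDH1, the adhesion protein E-cadherin, by −0.19 and KRT18 by −0.16. CDH1 and KRT18 were lower in miR-143 cells at all 4 numbers (limma adjusted p = 1 for both without pairs, 0.175 for CDH1 and 0.236 for KRT18 with pairs), while KRT8 was not (0.703 with pairs). With the probe sets of each gene averaged, the limma adjusted p with pairs was 0.528 for CDH1, 0.196 for KRT18 and 0.774 for KRT8. Only for VIL1 did the groups not overlap, with a difference of −0.10, beside 1.24% of all genes with miR-143 below. Array means of the epithelial list ranged from 10.05 to 10.52 in miR-143 cells and from 10.19 to 10.53 in mock cells. Of 8 fibroblast markers 5 were dim, of 5 endothelial markers 3, and of 5 leukocyte markers 4, and array means of the fibroblast list were 7.08 to 7.22 in miR-143 cells and 7 to 7.25 in mock cells. Genes of the interferon response to double-stranded RNA, 12 in all, split 6 and 6, with differences from −0.16 to 0.12. At an unadjusted p under 0.05 limma without pairs gave 1 of them, lower in miR-143 cells, beside 2.41% of all genes. The groups of 1 did not overlap, with miR-143 below, beside 1.24% of all genes. The interferon list had array means of 7.72 to 7.81 in miR-143 cells and 7.72 to 7.80 in mock cells. These ranges compare the groups within a list, not 1 list with another. The part of these values in the member differences was not tested.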

How the data were processed

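DLD-1 cells from 8 cultures, 4 miR-143 and 4 mock, were measured on 1 array each. The deposited values are log2 expression values, which the authors computed by RMA (affy, per the processing notes), and versions are not given in the sources used here. They were used as deposited. Of 54675 probe sets, 41091 carried 1 current symbol, 1801 several, 11721 none, and 62 were controls. Each gene was represented by its brightest probe set, and 10521 genes had more than 1. Groups were compared with limma 3.58.1 (lmFit and eBayes, R 4.3.3, two-sided), with Benjamini-Hochberg adjustment over all genes or all probe sets, and with an exact permutation test for single genes. The fitting procedure was tested on simulated data, in which every planted difference was larger than any member difference. That test does not show whether differences of the size found for the members would be called. Tables were made with Python 3.11.15, pandas 2.3.3, numpy 2.4.6 and scipy 1.17.1, and figures with matplotlib 3.10.9. Array number limits the precision.

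Replicate numbers were taken as pairs only if arrays sharing a number correlated above 0.1, as deviations from the mean of each group, for every number. Across genes they did (0.11, 0.17, 0.58 and 0.81 for replicates 1 to 4), and across probe sets replicate 1 did not (0.08), so pairing is undecided and both fits are given. Across genes the array of the same number was the best match for replicates 3 and 4, but not for replicates 1 and 2. The methods call the cultures biological replicates.

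Members and lists were chosen with earlier results of these data known. Genes named beyond the members are up to 3 of lowest p in each pathway list, the 3 most like AXIN2, and those singled out after their values were seen. Alternatives were the replicate block, other normalizations, array weights, filters, the mean of probe sets and left-out arrays.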

Additional observations from a re-analysis of the deposited data

Results flagged for a closer look

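Within 58 groups of 4 arrays, over the 29 member probe sets, 3 held an array far from the other 3, and chance alone flags about 1 in 20 groups. APC 215310_at was 7.32 in mock replicate 3, against 7.39 to 7.40 in the other mock arrays. AXIN2 222696_at, the probe set used for the gene, was 12.49 in mock replicate 4, against 12.12 to 12.17 in the other mock arrays. TCF7L2 212759_s_at was 9.04 in mock replicate 4, against 8.56 to 8.61 in the other mock arrays. Mock replicate 4 is among the arrays of wider spread.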

How the results depend on the processing

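Neither the labels nor the methods say what a replicate number stands for. The replicate block and the filters cannot move a difference, and 36 of 193 alternative member values were fixed in this way or repeated another. Of the other 157, 116 kept their direction and 41 did not, and 0 of the 193 passed. MYC was negative in each of 15 and ASCL2 in each of 16. Left-out arrays gave −0.364 to −0.0845 for MYC, −0.303 to −0.152 for ASCL2, 0.013 to 0.161 for APC, −0.116 to 0.0554 for CTNNB1, −0.0844 to 0.0514 for AXIN1, −0.162 to 0.0439 for AXIN2, −0.0755 to 0.0246 for LGR5, −0.145 to 0.0513 for TCF7L2, −0.134 to 0.154 for LEF1 and −0.239 to 0.0584 for RNF43. Cyclic loess turned CTNNB1 to 0.0765, AXIN1 to 0.00273, AXIN2 to 0.0264, LGR5 to 0.00624 and TCF7L2 to 0.0423. Quantile normalization, chosen after seeing the data, turned CTNNB1 to 0.0723, AXIN2 to 0.0393, LGR5 to 0.00508 and TCF7L2 to 0.0401. The mean of probe sets turned CTNNB1 to 0.00962, LGR5 to 0.00179 and LEF1 to −0.00682. TCF7L2 was 0.0518 with array weights and 0.0513 without replicate 4 of both groups. Limma called 0 genes lower and 0 higher without pairs, and 123 and 33 with the replicate block, 31 and 21 after cyclic loess, 32 and 22 after quantile normalization, 36 and 20 with array weights and 30 and 13 without replicate 4 of both groups. For probe sets it called 1 lower and 0 higher without pairs, and 171 and 45 with the replicate block, 37 and 23 after cyclic loess, 42 and 26 after quantile normalization, 35 and 19 with array weights and 32 and 19 without replicate 4 of both groups. The filter on low variance left 0 lower probe sets, and single left-out arrays gave 0 to 1. The cause of these moves was not tested.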
